A study of Ictidomys tridecemlineatus with 15 samples.

Results

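Amacrine cells (AC) were examined in the cone-dominated retina of the 13-lined ground squirrel (13LGS) at postnatal day (P) 12, P17 and P21. The members were the cells that the deposited annotation named AC in the 4 libraries of these ages, which gave 6724 AC of the 18555 cells of those libraries. The whole series held 11929 AC among 53394 cells. There were 1824 and 1428 AC in the 2 libraries of P12 (called P12a and P12b here), 1872 at P17 and 1600 at P21. AC of P4 (1263 cells) and of the 2 libraries of P8 (1430 in P8a and 315 in P8b) served as the earlier stage. All animals came from captive-bred litters, no treatment or genetic change is given for any group, and every library was made from whole retina with the 10x 3′ v3.1 chemistry. Per the study's methods, retinas for single-cell work were methanol-fixed or flash-frozen, with nuclei taken from the flash-frozen ones. The labels do not say which of these applied to any library here, nor whether the libraries of one age came from separate animals. The p-values below therefore measure the spread between these libraries, which may be technical. Where a group pools ages, such as P17 with P21, change between those ages also counts as spread.

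AC are the inhibitory interneurons of the inner retina. They receive input from bipolar cells (BC) and act back on bipolar cells, on other AC and on retinal ganglion cells (RGC) in the inner plexiform layer. They are the most diverse class of retinal neuron, most of them release either GABA or glycine, and smaller subtypes add a peptide, dopamine or acetylcholine. In this species the formation of retinal neurons ends at about P17, so the 3 ages span the close of neurogenesis and the time just after it. The gene names in the files are not tied to rows of the count matrix, so genes are given by their row number, counted from 1, and their function is not known here.

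The files could not be checked against named AC markers for the same reason. The annotation was instead compared with the counts themselves. Of 3331 AC held out of the mean profiles, 3081 (92.5%) were nearest to the mean AC profile, and 125 (3.75%) were nearest to photoreceptor precursors. None of the 5946 held-out cells of other types was nearest to AC. Since the annotation was made from these counts, this describes its fit and does not test it.

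The median AC held 2094 unique molecular identifiers (UMIs, which count molecules) in P12a, 3598 in P12b, 2981.5 at P17 and 2457.5 at P21, against 1572 to 2225 in the P4 and P8 libraries. AC sums ran from 4467177 to 7036779 UMIs in the 4 libraries and from 696113 to 3578052 in the earlier ones. Pairs of the 4 libraries shared 1 to 8 cell barcodes, 0 to 2 of them in AC of both. AC with more than 2 times the median UMI count of their library made up 7.51% in P12a, 9.31% in P12b, 14.2% at P17 and 23.8% at P21. Libraries of one age were not always the most alike. Over 9185 rows, the median absolute log2 difference between AC sums was 0.26 between P12a and P8a, smaller than the 0.37 between P12a and P12b. It was 0.34 between P12b and P17, 0.40 between P17 and P21 and 0.56 between P12b and P21.

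AC made up 42.8% of the cells of P12a (95% Wilson interval 41.3% to 44.3%), 36.1% of P12b (34.6% to 37.6%), 35.5% at P17 (34.2% to 36.8%) and 31.6% at P21 (30.4% to 32.9%). These intervals cover counting error only. The earlier libraries lay on both sides of this range, with 32.3% at P4, 47.5% in P8a and 23.0% in P8b. The mean share was 5.87 points lower at P17 and P21 than at P12 (33.6% ± 2.71 against 39.4% ± 4.72, SD, n = 2 each; exact two-sided permutation p = 0.333, the smallest that 2 against 2 allows). Between P12 to P21 and P4 to P8 the difference was 2.23 points (36.5% ± 4.62, SD, n = 4, against 34.3% ± 12.3, SD, n = 3; exact two-sided permutation p = 0.8, where the smallest possible is 0.0571), and it turned to −3.40 points without P8b. Both P12 libraries lay above P17 and P21, a separation that 2 libraries against 2 cannot test at the 0.05 level. The difference was −10.2 points without cells above 2 times the median UMI count of their library and type. Among AC, BC, horizontal cells and RGC alone it was −7.72 points (exact two-sided permutation p = 0.667). There the groups overlapped, with AC at 47.7% in P12b and 49.4% at P21. The difference from P4 and P8 was smaller than the spread between libraries. There were 1.85 AC per bipolar cell in P12a, 1.12 in P12b, 0.893 at P17 and 1.12 at P21. Shares of one library add up to the whole, and cones made up 30.4% of the P21 library against 7.67% to 13.4% of the other 3.

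**Figure D1:**
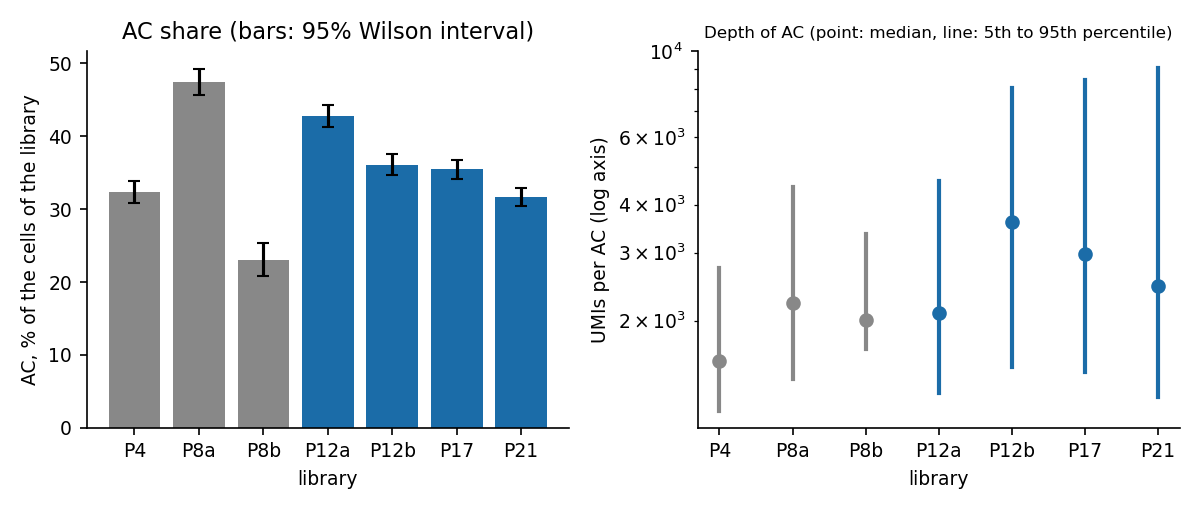
Left, AC as a percentage of the cells of each library, with 95% Wilson intervals. Right, UMIs per AC on a log axis (median, and the line from the 5th to the 95th percentile). The 4 libraries of P12 to P21 (blue) hold 31.6% to 42.8% AC, between the P8a and P8b libraries of the earlier stage (grey), and their median depth runs from 2094 to 3598 UMIs.

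Rows led by AC were those at 50 or more counts per 1000000 UMIs (CPM) in the pooled AC of the 4 libraries and at least 4-fold higher in AC than in every other type with 50 or more cells in each of the 4 libraries. There were 13 such rows. The choice used these values, so they are a description. Row 26074 stood out most from other types, at 395, 119, 354 and 1012 CPM in AC of P12a, P12b, P17 and P21. The highest other type in those libraries reached 26 CPM (Müller glia), 3.46 CPM (late-stage neurogenic progenitors), 12.3 CPM (RGC) and 45.3 CPM (Müller glia), so the lowest ratio was 15.2-fold. Row 1702 was the most abundant of the 13, at 638, 641, 1422 and 5390 CPM, at least 9.64-fold above any other type. Row 25527 was at 421, 396, 270 and 287 CPM, and row 26403 had 150, 123, 236 and 411 CPM.

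The summed level of the 13 rows in AC was 2555 CPM in P12a, 2191 in P12b, 3158 at P17 and 8422 at P21. It was 1044 CPM at P4, 1735 in P8a and 1806 in P8b, below each of the 4 later libraries. The rows were selected for a high level in the later libraries, so that difference is given without a test. Row 1702 carried most of the P21 sum and had 128, 507 and 730 CPM in P4, P8a and P8b. Between P12 and the later ages none of the 13 passed (edgeR's quasi-likelihood test with Benjamini-Hochberg adjustment, lowest adjusted p = 0.473), and 4 had an unadjusted p under 0.05. The minimum of 50 CPM was set on the 4 libraries pooled and can favour rows that are higher at the later ages: row 31042 had 40.3 and 27.5 CPM at P12 and 52.6 and 117 CPM later, and row 19460 had 37.6 and 23.6 CPM at P12 and 63.4 and 159.8 CPM later.

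**Figure D2:**
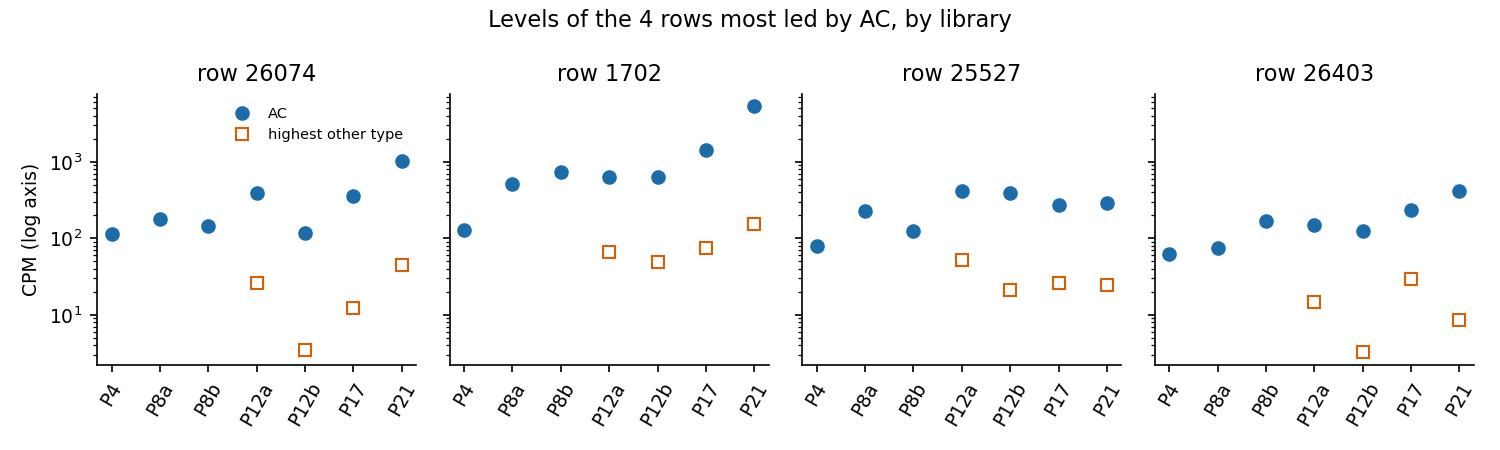
Level in CPM (log axis) of the 4 rows most strongly led by AC, in AC of 7 postnatal libraries (filled circles) and in the highest other type of the 4 later libraries (open squares). Row 1702 reaches 5390 CPM in AC at P21 against 638 to 1422 CPM in the other 3 later libraries, and the open squares lie below the circles in all 4 panels.

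Rows led by other types were also looked up in AC. They were chosen as at least 4-fold higher in their own type than in every other type, AC included. Their level in AC was held low by that choice and does not measure foreign RNA. Rows led by cones were not examined. Rows led by BC in the same way (2 rows) summed to 38.5, 12.9, 12.1 and 7.64 CPM in AC of P12a, P12b, P17 and P21, which was 0.876% to 3.03% of their level in BC. The 4 rows led by Müller glia summed to 24.4, 22.7, 60 and 8.69 CPM in AC, or 0.919% to 6.52% of their level in Müller glia. The 53 rows led by RGC stood at 7.46% to 10.5% of their RGC level. Row 17000 alone took 8.78% to 13.2% of all AC UMIs in the 4 libraries. This was not particular to AC: it took 9.78% to 13.4% in BC and 11.8% to 15.0% in Müller glia, and less in RGC (4.15% to 6.48%).

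The share of AC in which a row was found was measured next. Each cell was thinned to 1000 UMIs, which kept 6629 of the 6724 AC, so that depth no longer set the chance of detection. Row 26074 was then found in 15.1%, 8.16%, 15.7% and 23.9% of AC of P12a, P12b, P17 and P21, and row 25527 in 29.7%, 27.6%, 22.4% and 25.2%. Without thinning, row 26074 was found in 24.7% of all AC, against 4.45% of Müller glia and 1.99% of BC, and row 25527 in 50.2% against 6.30% and 4.31% (median UMIs 2713 in AC, 3438 in Müller glia and 2274 in BC).

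Some AC-led rows were seldom found in the same cell. Row 26074 and row 31159 were found in 1051 and 861 of the 6629 thinned AC and in 23 together, where the product of their shares is 143 cells, a ratio of 0.161. The ratio was 0.200, 0.0922, 0.203 and 0.122 in P12a, P12b, P17 and P21. Row 31042 and row 25508 were found together in 1 cell, against a product of 17.0. At the other end, row 6561 and row 26273 were found together in 82 cells against a product of 30.8, a ratio of 2.66, and row 1702 and row 26273 in 167 against 68.7, a ratio of 2.43. All 78 pairs of the 13 rows were computed, and 42 had a ratio under 1. These ratios share cells, depth and library, and are given as a description without a test.

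AC were then divided into subclusters by their own counts. Levels and shares of rows by subcluster rest on those same counts and are a description. Clustering the log counts as they stand gave 27 subclusters, and in 11 of them 95% or more of the cells came from 1 library. After centring the log counts within each library, a step chosen after the first result was seen, there were 20 subclusters of 69 to 952 cells, of which 14 held at least 1% of the AC of each of the 4 libraries and 1 came from a single library. For those 14 the highest share over the lowest share was between 1.15 and 2.92, with a median of 1.53. The summed level of the 13 AC-led rows ran from 792 to 20190 CPM across the subclusters, highest in subcluster 13 (203 cells), where row 1702 alone reached 17516 CPM.

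Several rows that stand for all AC in a summed profile came from few cells. Row 1702 had 53.9% of its AC UMIs in subcluster 13, which is 3.02% of the AC, and 24% in subcluster 14. Within subcluster 13 it had 6616 CPM in P12a, 6184 in P12b, 13221 at P17 and 24963 at P21, and in all other AC it had 490, 438, 655 and 2583 CPM. The level at P21 was thus higher inside subcluster 13 and in the other AC summed. Those other AC include subcluster 14, where the row had 9955 CPM over the 4 libraries. Subcluster 14 made up 2.41%, 1.82%, 2.14% and 4.56% of the AC of P12a, P12b, P17 and P21. Its part in the level outside subcluster 13 was not tested. Subcluster 13 itself made up 1.75% of the AC of P12a, 2.31% of P12b, 2.99% at P17 and 5.13% at P21, and 66.0% of its cells were above 2 times the median UMI count. Row 31042 was more confined, with 88.2% of its UMIs in subcluster 8 (334 cells).

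Subcluster 5 had cells at P12 and P17 and none at P21. It held 147 of 1824 AC in P12a (8.06%, 95% Wilson interval 6.90% to 9.40%), 94 of 1428 in P12b (6.58%, 5.41% to 7.99%) and 211 of 1872 at P17 (11.3%, 9.92% to 12.8%). At P21 it held 0 of 1600 AC, which allows a share of up to 0.188% (3 cells). Its leading rows were row 2587 and row 32883, with 94.3% and 97.8% of their AC UMIs in it. Leading rows are those highest in a subcluster relative to all other AC, so high shares follow from the choice. A low level in a library without cells of the subcluster follows from it as well. Without centring, the same 452 cells fell into 2 subclusters of their own, 242 and 210 cells, which divided them between P12 and P17. The 242 cells were 8.06% and 6.51% of the AC of P12a and P12b and 0.107% at P17. Of the 210 cells, 99.5% came from P17.

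The levels of these rows in the AC of P4 and P8, which took no part in the clustering, were measured as well. Row 2587 had 219, 106 and 204 CPM in AC of P4, P8a and P8b, 192 and 138 CPM in P12a and P12b, 229 CPM at P17 and 6.43 CPM (37 UMIs) at P21. It was still at 296 CPM in BC and 66.6 CPM in RGC at P21, so the row was detected in that library. Row 32883 had 1.39, 17.3 and 44.5 CPM in AC of P4, P8a and P8b, 65.8, 52.9 and 98.5 CPM in P12a, P12b and P17, and 2.08 CPM (12 UMIs) at P21. In BC, RGC and Müller glia of P21 it was at 7.26 CPM or below. The 4 rows led by Müller glia summed to 239 CPM in subcluster 5, against at most 19.6 CPM in any other subcluster. The P21 library also held 1 horizontal cell (0.0198% of its cells) against 1.92% to 3.64% of the other 3 libraries. Fewer cells of a subtype and loss of such cells before or during capture cannot be told apart with 1 library at this age.

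Other subclusters held few AC of the P17 library. Subcluster 12 held 4.61% of the AC of P12a (84 cells), 4.34% of P12b (62 cells) and 4.06% at P21 (65 cells), but 3 of 1872 at P17 (0.160%, 95% Wilson interval 0.0545% to 0.470%). Its leading row, row 15566, had 63.6, 87.1, 6.11 and 124 CPM in AC of P12a, P12b, P17 and P21. Subcluster 7 held 7.89%, 5.74% and 8.31% of the AC of P12a, P12b and P21 and 0.962% at P17. Its leading row, row 29430, did not follow that gap, at 79.2, 65.5, 100.05 and 175 CPM. At P17 75.6% of its UMIs were in subcluster 6, where it had 683 CPM. Without centring, 241 cells of subcluster 6 and 244 of subcluster 7 fell into 1 subcluster. That subcluster held 12.9%, 11.1%, 4.65% and 0.75% of the AC of P12a, P12b, P17 and P21. The part of the division between subclusters 6 and 7 in the low share at P17 was not tested. Subclusters 17 and 18 had no cell at P12. Subcluster 17 held 0.588% of the AC at P17 and 5% at P21, and subcluster 18 held 0 cells at P17 and 90 cells at P21 (5.63%). Row 20126, which leads subcluster 18, was at 0 UMIs in AC of P4, P8a and P8b, at 0.895, 1.02 and 4.12 CPM in P12a, P12b and P17 and at 53.3 CPM (307 UMIs) at P21. Subcluster 20 (69 cells) had no cell at P17. The 5 subclusters under 1% of the AC in 1 library and over 4% in another (5, 7, 12, 17 and 18) held 1224 AC (18.2%).

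**Figure D3:**
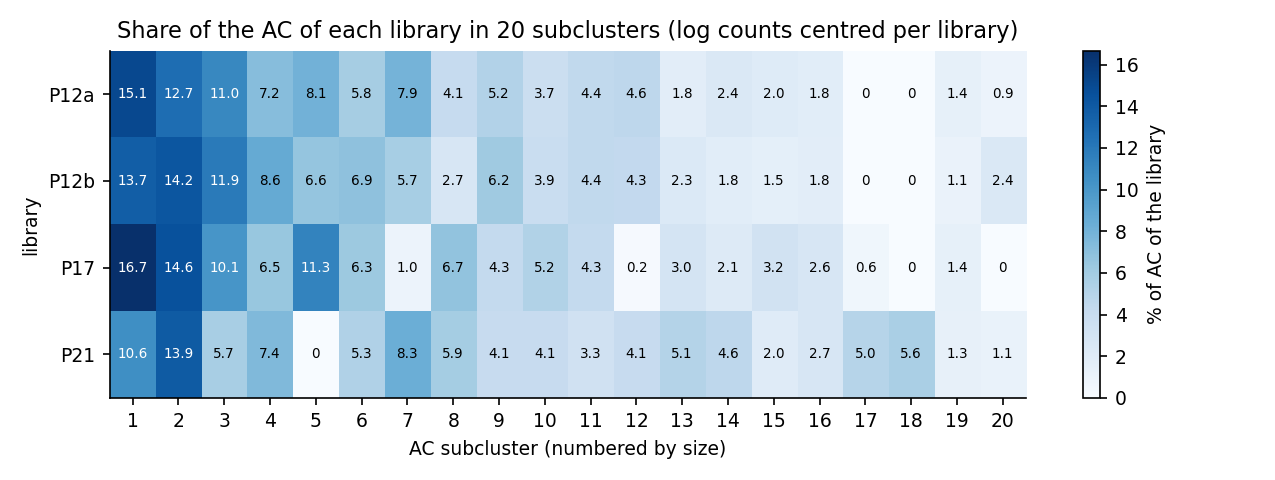
Share of the AC of each library (percent, shown by colour and number) in the 20 subclusters found after centring per library, numbered by size. Subcluster 5 is at 0 at P21, subclusters 7 and 12 are at 0.962% and 0.160% at P17, and subclusters 17 and 18 are found almost only at P21.

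In 3 of the 20 subclusters both leading rows stood at most 5 row numbers apart: row 15871 and row 15870 in subcluster 1, row 17639 and row 17644 in subcluster 4, and row 7658 and row 7655 in subcluster 10. Whether such neighbours share reads was not tested.

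AC of P12 to P21 were compared with AC of P4 and P8 to ask what changes as these neurons mature. Of 14037 rows tested, 64 were called (0.456%; edgeR's quasi-likelihood test with Benjamini-Hochberg adjustment), 15 higher and 49 lower in the later AC. Of the 49 lower rows, 28 were more than 10-fold higher in some other type than in AC of these libraries (4.16% of all rows tested were). In 15 of them that type was late-stage primary progenitors, and none of the 15 higher rows was of this kind. Levels for this ratio were pooled by UMIs over the earlier and later libraries, and the later AC held most AC UMIs. A row that falls in later AC thus has a low pooled AC level, so these counts partly follow from the direction of the call. Those 28 rows summed to 2842, 1047 and 1763 CPM in AC of P4, P8a and P8b and to 163 to 418 CPM in the later AC. Late-stage primary progenitors made up 35.2%, 11.0% and 3.65% of P4, P8a and P8b and at most 1.90% of the later libraries, and their part in these falls was not tested. With rows of that kind left out before the fit, 13 rows were called, 2 higher and 11 lower. The choice of the rows left out has the same limit.

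The rule for named rows takes only rows with no overlap between the libraries of the groups. By this rule, row 19981 and row 2358 rose most. Row 19981 had 0, 1.40 and 1.44 CPM in AC of P4, P8a and P8b (6 UMIs in all), then 19.5, 22.2, 75.7 and 195 CPM in P12a, P12b, P17 and P21. All 4 later libraries lay above all 3 earlier ones, as the rule required. The log2 change was 6.18 (SE 1.14, edgeR's quasi-likelihood test, adjusted p = 0.0467). Of its later AC UMIs, 41.0% were in subcluster 4. The rise was not particular to AC. RGC had 0, 1.06 and 7.80 CPM in P4, P8a and P8b and 257 CPM at P21, above AC. BC, cones and Müller glia had 0 CPM in P8a and 99.6, 63.5 and 51.8 CPM at P21. Horizontal cells and photoreceptor precursors stayed low, at 1.45 and 0 CPM in the later libraries pooled. Without any 1 library the change ran from 5.18 (without P21) to 7.52 (without P8a), and the call was lost without P4, P8a, P8b or P17. It was also lost with only rows of at least 10 CPM and without rows over 10-fold higher in another type.

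Row 2358 had 10.2, 27.7 and 23.0 CPM in AC of P4, P8a and P8b and 321, 188, 764 and 1935 CPM in P12a, P12b, P17 and P21. Its log2 change was 5.14 (SE 0.83, edgeR's quasi-likelihood test, adjusted p = 0.0321), again with the lack of overlap that the rule required. Most of its UMIs lay in few cells. Subcluster 19, with 87 of the 6724 AC (1.29%), held 85.8% of the row's UMIs. There it stood at 16881 CPM in P12a, 9963 at P12b, 32326 at P17 and 85338 CPM at P21, while in all other AC it was at 63.0, 47.8, 109.7 and 248 CPM. Subcluster 19 had 25, 15, 26 and 21 cells in the 4 libraries. Cones had more of this row than AC in each of the 4 later libraries, at 328, 264, 1297 and 2891 CPM. Pooled over these libraries cones had 1392 CPM, AC 823 CPM and RGC 594 CPM. Cones also made up a larger share of the P21 library than of the other 3, and their part in the AC level was not tested. The call was lost without P4, P8a, P8b or P17, with log2 changes from 4.22 (without P21) to 5.64 (without P8a) over the 7 fits without 1 library. It was also lost without rows over 10-fold higher in another type (edgeR's quasi-likelihood test, adjusted p = 0.0547).

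Row 32064 and row 5676 fell most. Row 32064 had 256, 150 and 34.5 CPM in AC of P4, P8a and P8b and 6.27, 3.22, 0.568 and 0 CPM in P12a, P12b, P17 and P21 (51 UMIs in all). Its log2 change was −6.20 (SE 0.94; edgeR's quasi-likelihood test, adjusted p = 0.0258). In the earlier libraries pooled AC had 173 CPM and the next type, photoreceptor precursors, 32.9 CPM. By library, photoreceptor precursors had 33.0 and 10.2 CPM in P4 and P8a, but 39.2 CPM in P8b, above AC. The call was lost without P4, P12b or P17, and the change ran from −5.47 without P4 to −7.08 without P12a. Row 5676 had 216, 138 and 79.0 CPM early and 28.7, 9.67, 10.9 and 20.2 CPM late, with a log2 change of −3.28 (SE 0.46; edgeR's quasi-likelihood test, adjusted p = 0.0198). It lost the call without P4 or P17, and the change ran from −2.79 (without P4) to −3.61 (without P8b). For both rows every later library lay below every earlier one, as the rule for named rows required. Both rows were also lower later in other types. Pooled over libraries, row 32064 went from 32.9 to 4.60 CPM in photoreceptor precursors and from 22.4 to 2.89 CPM in horizontal cells. Row 5676 went from 67.1 to 15.9 CPM in horizontal cells and from 10.5 to 0.965 CPM in BC.

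**Figure D4:**
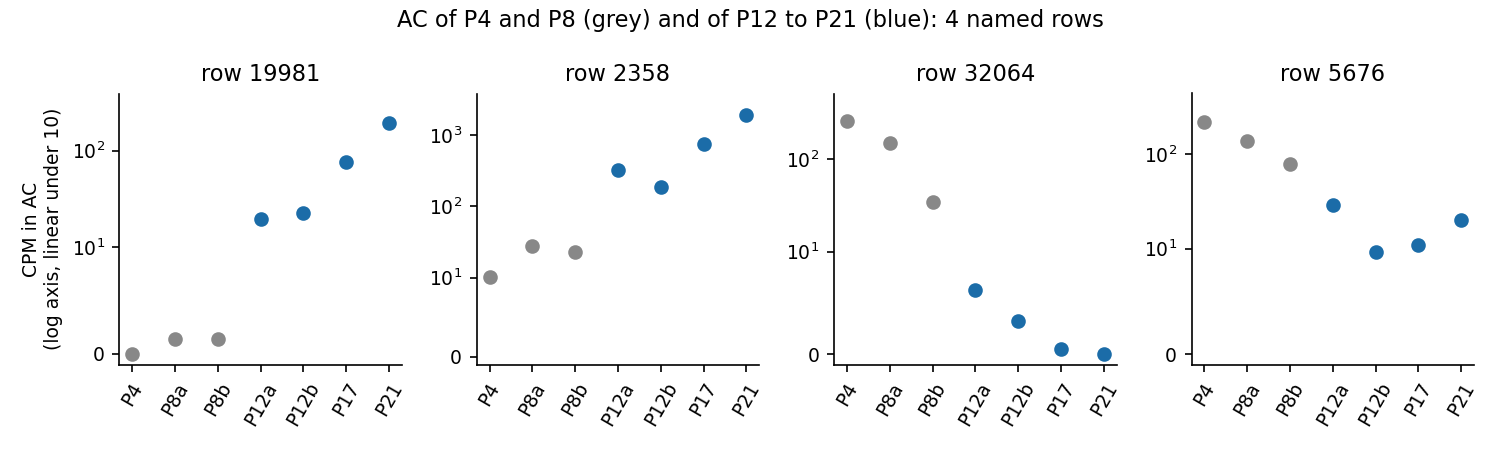
Level in CPM (log axis, linear under 10) of 4 rows in the AC of 3 libraries of P4 and P8 (grey) and of 4 libraries of P12 to P21 (blue). Row 19981 and row 2358 are higher, and row 32064 and row 5676 lower, in every blue library than in any grey one. The rule for named rows required this.

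The number of calls depended on single libraries. It was 6 without P4, 14 without P17, 19 without P8b, 29 without P12b, 43 without P8a, 69 without P12a and 94 without P21. At an unadjusted p under 0.05 there were 2192 rows, and DESeq2's Wald test called 485 (234 higher and 251 lower).

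Within the later stage, AC of P17 and P21 were compared with AC of P12. Of 14919 rows none was called by edgeR's quasi-likelihood test with Benjamini-Hochberg adjustment (percent called 0, lowest adjusted p = 0.249). At an unadjusted p under 0.05 there were 1342 rows, and DESeq2's Wald test called 103, of which 81 were higher and 22 lower. With 1 library at each later age, the contrast depended on which was kept: 832 rows were called without P17 and 88 without P21, where the lone library is assumed to vary like the pair at P12. Without the 5 subclusters of uneven share, an alternative chosen after the data were seen, the count was 0 again, with 1428 rows at an unadjusted p under 0.05.

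The change from P12 to P17 and P21 was next compared between AC and BC of the same libraries, the cells that AC both receive input from and inhibit. The difference was called for 174 of 16328 rows (1.07%; edgeR's quasi-likelihood test of the interaction with Benjamini-Hochberg adjustment and the library as a block), 68 more positive and 106 more negative in AC. It was called for 21 rows without P12b, 42 without P12a, 555 without P21 and 2040 without P17, and DESeq2's Wald test called 84. Of the 174 rows, 18 were more than 10-fold higher in another type than in AC, 2 of the more positive and 16 of the more negative rows (6.53% of all rows tested were).

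Row 19403 had 98.0 and 36.7 CPM at P12 and 58.7 and 182 CPM at P17 and P21 in AC, while in BC it went from 67.9 and 23.8 CPM to 10.0 and 11.8 CPM. The difference of the log2 changes was 2.66 (SE 0.31; edgeR's quasi-likelihood test, adjusted p = 0.000581). In AC, 77.9% of its UMIs lay in subclusters 13 and 14, and without cells above 2 times the median UMI count the difference was 0.70 (edgeR's quasi-likelihood test, adjusted p = 0.348). Row 15673 had 99.4, 37.5, 76.2 and 141 CPM in AC of P12a, P12b, P17 and P21 and 61.8, 26.4, 20.5 and 18.9 CPM in BC, a difference of 1.75 (SE 0.26; edgeR's quasi-likelihood test, adjusted p = 0.00414). It was 1.64 without P12b and 1.74 with only rows of at least 10 CPM, with the call lost in both cases.

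Row 31443 was at 27.3, 35.6, 47.2 and 63.2 CPM in AC, whereas BC had 0.336 and 0.710 CPM at P12 and 12.7 and 9.80 CPM at P17 and P21. The difference was −3.51 (SE 0.50; edgeR's quasi-likelihood test, adjusted p = 0.00262), and −4.04 without P12b, with the call lost. AC stayed above BC in all 4 libraries. Row 12818 crossed over: AC had 62.7 and 39.0 CPM at P12 and 14.6 and 22.9 CPM later, and BC had 20.5 and 12.5 CPM at P12 and 39.1 and 67.9 CPM later. Its difference was −3.12 (SE 0.22; edgeR's quasi-likelihood test, adjusted p = 1.84e-05), and it passed under all 11 alternatives. Pooled Müller glia of the 4 libraries had 30.6 CPM of it and pooled AC 32.2 CPM.

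Against RGC, the other main target of AC output, the difference was called for 48 of 15059 rows (0.319%; edgeR's quasi-likelihood test of the interaction with Benjamini-Hochberg adjustment and the library as a block), 42 more positive and 6 more negative in AC. The count was 8 without P12a, 23 without P12b, 145 without P21, 951 without P17 and 5 without cells above 2 times the median UMI count. Of the 48 rows, 7 were more than 10-fold higher in another type than in AC, all of them more positive in AC (5.27% of all rows tested were). DESeq2's Wald test called 65, with 10510 adjusted p-values not given by the tool. Without the 5 subclusters of uneven share 170 rows were called, 47 of the 48 among them.

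Row 6326 rose in AC from 72.1 and 60.9 CPM at P12 to 235 and 241 CPM at P17 and P21 and stayed between 57.2 and 66.2 CPM in RGC. Its difference was 1.90 (SE 0.21; edgeR's quasi-likelihood test, adjusted p = 0.00264) and passed under all 11 alternatives. BC carried the row at 219.7 to 633 CPM. At P17, 70.3% of the AC UMIs of row 6326 lay in subcluster 5, which had no cells at P21. In AC outside subcluster 5 the row had 41.6, 44.0, 82.4 and 241 CPM in P12a, P12b, P17 and P21. Row 13973 had 67.6, 101, 107 and 12 CPM in AC and 11.9, 32.6, 2.77 and 0.427 CPM in RGC of P12a, P12b, P17 and P21, a difference of 3.39 (SE 0.44; edgeR's quasi-likelihood test, adjusted p = 0.00642). It was low in AC of P21 as well as in RGC of P17 and P21. The difference was 2.91 without P17 and 1.28 without cells above 2 times the median UMI count, with the call lost in both cases. In subcluster 6 of AC, where 63.8% of its UMIs lay, row 13973 had 502, 975, 574 and 7.24 CPM in P12a, P12b, P17 and P21.

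Row 29430 had a difference of −5.52 (SE 0.40; edgeR's quasi-likelihood test, adjusted p = 3.77e-05). AC had 79.2 and 65.5 CPM at P12 and 100.05 and 175 CPM later, and RGC 4.19 and 0.882 CPM at P12 and 110.5 and 276 CPM later. RGC of P4 had 0 UMIs of this row, and RGC of P8a and P8b had 168 and 234 CPM, so the earlier libraries lay on both sides of P12. The difference passed under all 11 alternatives. It was −4.22 without the 5 subclusters of uneven share, and ran from −4.64 without P12b to −6.55 without P12a over the 4 fits without 1 library. Row 26828 fell in AC from 178 and 118 CPM to 22.0 and 17.2 CPM, against 115, 27.0, 35.7 and 30.3 CPM in RGC, with a difference of −2.02 (SE 0.37; edgeR's quasi-likelihood test, adjusted p = 0.0455). It was −1.37 without P12b, −1.64 without cells above 2 times the median UMI count and −2.04 with only rows of at least 10 CPM, with the call lost in all 3 cases. In AC of P12a and P12b the row was highest in subcluster 4, which held 42.8% and 47.5% of its AC UMIs there.

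**Figure D5:**
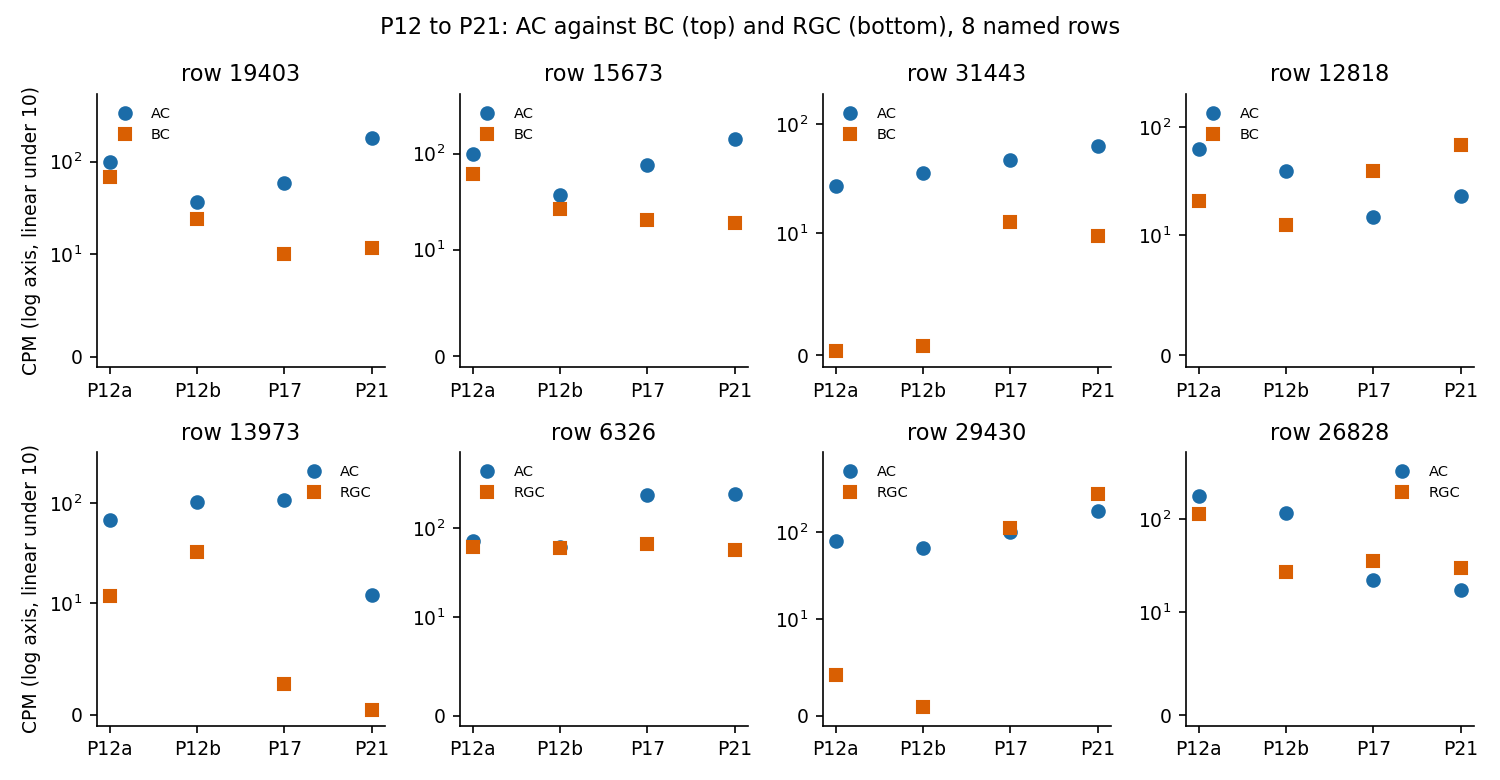
Level in CPM (log axis, linear under 10) of 8 rows in AC (circles) and in BC (top row, squares) or RGC (bottom row, squares) of 4 libraries. BC and AC change places for row 12818 between P12 and the later ages, and for row 29430 RGC move from 4.19 and 0.882 CPM at P12 to 110.5 and 276 CPM at P17 and P21.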

How the data were processed

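The authors deposited 1 matrix of UMI counts, whole numbers per gene row and cell that are not normalized, and a table of cell names with age and cell type. Per the submitters' processing notes Cell Ranger 3.1.0 and Seurat 4.0.4 were used. The study's methods name the HiC_Itri_2 assembly. The embedding coordinates of the deposited cell table were not used. The matrix had 34181 rows and the list of gene names 30265 entries without row numbers. Libraries were read from the suffix of the cell name, and the time point P12 of the cell table was taken as that age, since P1 is a separate value there. P1 had more suffixes than samples, so its 6920 cells are not analysed here. All other deposited cells were kept. No doublet caller was run, and whether doublets had been removed before deposit is not given in the sources used here.

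UMI counts were summed per library and cell type and tested with edgeR 4.0.16 (R 4.3.3): filterByExpr, TMM scaling, glmQLFit and glmQLFTest, with a Benjamini-Hochberg adjusted p below 0.05 as a call. The SE is the log2 change divided by the square root of F. CPM are UMIs per 1000000 of the sum, unscaled. In differences between types the library was a block and the interaction was tested. DESeq2 1.42.0 was an alternative. The study tested single cells, and sums were used here in its place. The fit was tested on simulated counts. Named rows had an adjusted p below 0.05, no overlap between groups, at least 50 CPM in the higher group and pooled AC at 0.5 times or more of every other type with 50 cells. The 2 largest rises and 2 largest falls were taken. Subclusters used 2000 variable rows, 20 components, 20 neighbours and the Leiden method at resolution 0.5. The AC class, the lists and the tests were chosen with earlier results of these data known.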

Additional observations from a re-analysis of the deposited data

Results flagged for a closer look

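Among 35 values compared over the 4 libraries of P12 to P21, 6 had 1 library far from the others by Dixon's test at the 95% level, and 5 of the 6 were at P21. Chance marks about 1 group in 20 only for values chosen beforehand, which these were not. The subclusters compared were those low in 1 library and high in another. The rows were picked by their levels in these same libraries. Several of the values also overlap with each other. Row 1702 was at 5390 CPM and row 32093 at 443 CPM in AC of P21, and the summed level of the 13 AC-led rows was 8422 CPM there. Subclusters 17 and 18 held 5% and 5.63% of the AC of P21. Subcluster 12 held 0.160% of the AC of P17.

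The change from P12 to P17 and P21 differed between AC and BC for 174 rows and between AC and RGC for 48 rows by edgeR's test of the interaction. Against BC the named differences were 2.66 on the log2 scale for row 19403, 1.75 for row 15673, −3.51 for row 31443 and −3.12 for row 12818. Against RGC they were 3.39 for row 13973, 1.90 for row 6326, −5.52 for row 29430 and −2.02 for row 26828.

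Before birth, 108 of 3894 cells of 1 library of embryonic day 26 were annotated as AC (2.77%, 95% Wilson interval 2.30% to 3.34%), and 1 of 2148 in the other. They entered no comparison.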

How the results depend on the processing

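Of the 12 named rows under 152 alternatives in all, 127 results stayed past the threshold, 25 did not and none changed sign. For AC of P12 to P21 against P4 and P8 (64 calls) the count was 485 with DESeq2, 914 without a filter on low counts, 13 without rows over 10 times higher in another type, 411 in 1 fit over 7 AC sums and 1409 with postnatal day as a covariate, and 6 to 94 with 1 library left out. For P17 and P21 against P12 (0 calls) it was 103 with DESeq2, 411 without a filter, 24 with postnatal day as a covariate and 0 to 832 with 1 library left out. For AC against BC (174 calls) it was 84 with DESeq2, 671 without a filter, 47 with only rows of at least 10 CPM and 21 to 2040 with 1 library left out. For AC against RGC (48 calls) it was 337 without a filter, 10 with only rows of at least 10 CPM, 5 without cells of high UMI count, 170 without the 5 subclusters (chosen after seeing the data) and 8 to 951 with 1 library left out. The cause was not tested.

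The AC share of P12 to P21 minus that of P4 and P8 was −16.8 points among AC, BC, horizontal cells and RGC alone (exact permutation p = 0.114), and −3.40 to 8.83 points with 1 library left out. The share of P17 and P21 minus that of P12 was −7.72 points among AC, BC, horizontal cells and RGC alone (exact permutation p = 0.667). It was −10.2 points without cells of high UMI count and −9.21 to −2.54 points with 1 library left out. There were 30 AC-led rows at 2-fold and 3 at 8-fold in place of 13, and 12 to 17 with 1 library left out. No paired analysis was possible because the suffixes of the cell names do not show the replicate numbers of the labels, so libraries of different ages could not be paired. AC and BC, or AC and RGC, of the same library were blocked by library. With 1 library at P17 and 1 at P21, age and library cannot be told apart there.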
